A study of Mus musculus with 6 samples.

Results

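The semaphorins, Slits, netrins and ephrins and their plexin, neuropilin, Robo, Unc5 and Eph receptors were followed as 1 set of guidance genes in the embryonic mouse pancreas. Members were taken by patterns of their gene symbols, and the set was chosen with earlier results of these data known. The patterns found 67 of the 24062 genes in the count tables, of which 34 encode ligands and 33 encode receptors in 12 families. Of these, 60 reached 5 CPM (counts scaled to library size with TMM factors) in at least 1 library. The other 7, which were Sema3e, Sema3g, Plxnb3, Robo3, Epha5, Epha6 and Epha10, stayed below that level in every library, and the highest of their values was 4.8 CPM for Sema3e.

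RNA was sequenced from cells of the dorsal pancreatic bud, dissociated and sorted by Tomato and GFP fluorescence. Each of the 6 libraries stood alone in its group and held pooled sorted fractions. The mutant genotype included Pbx2+/- with Nkx2.5-Cre+/- and mTmG+/-, and the control genotype was mTmG. The groups were mutant and control mesenchyme at E12.5, epithelium labelled mutant and control epithelium at E14.5, and epithelium labelled mutant and control epithelium at E12.5. In the mTmG reporter, cells carry Tomato until Cre recombinase switches them to GFP. Cre was driven from Nkx2.5, which is active in part of the mesenchyme beside the early pancreas, so recombination is limited to cells with a history of that driver. How the control genotype, whose label names no Cre, came to have GFP cells is not in the labels, nor is the number of embryos in a pool.

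Semaphorins signal through plexins, with neuropilins as co-receptors for most secreted class 3 members, and Slits signal through Robo receptors. Netrins act through Dcc, neogenin and the Unc5 family, while ephrins are membrane-bound ligands of the Eph receptor tyrosine kinases and can also signal back into the cell that carries them. First described in growing axons, these systems also guide migrating cells, vessels and branching epithelia, and Eph, Slit and netrin genes are known to act in the developing pancreas.

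Gene counts totalled 14032569 in the shallowest library and 20276045 in the deepest. Each comparison sets 1 library against another, with no spread within a group, and every interval given here is a 95% interval for the counting error of a ratio alone. A gene was called different between 2 libraries at 2-fold or more, with an interval that left out 1 and at least 5 CPM in at least 1 of the libraries. Among all genes with a mean of 30 to 100 CPM, the log2 ratio of mutant to control mesenchyme had an SD of 0.36. Counting gave a median SD of 0.0709, so the intervals cover a small part of the spread. As a check of the labels, Pbx2 stood at 56 CPM in mutant and 89.9 CPM in control mesenchyme. In E12.5 epithelium Pbx2 stood at 49.7 CPM in the library labelled mutant and 54.5 CPM in the control library, only 1.1-fold lower. In E14.5 epithelium Pbx2 went against the label, with 47.3 CPM in the library labelled mutant and 34 CPM in the control library. Directions in epithelium thus rest on the label. General mesenchymal genes were also detected in the epithelial fractions: a list of 29 general mesenchymal genes summed to between 12800 and 14100 CPM in the mesenchyme libraries and to between 6720 and 14800 CPM in the epithelial libraries. General epithelial genes summed to 157 and 192 CPM in mutant and control mesenchyme, against 4080 to 8510 CPM in epithelium. In such bulk samples, fewer cells of a type and less RNA per cell cannot be told apart.

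Guidance genes of all families were present in both fractions. At 5 CPM or more there were 43 members in mutant and 53 in control mesenchyme, 52 in the E14.5 epithelium labelled mutant and 48 in the control library of that stage, and 52 and 53 in the mutant-labelled and control E12.5 epithelium. Levels per kilobase of exon adjust for the annotated length of a gene. That length was of all annotated exons merged, from 1599 bases for Efna4 to 25433 bases for Slit2. A gene with annotated exons that these cells do not use is therefore set too low, and ranks and sums on this scale rest on the annotation. On it, the highest ligand level was that of Efna2, an ephrin-A, in every library except the control E14.5 epithelium, where Sema3f led. Efna2 reached 71.4 CPM per kb in mutant and 68.5 CPM per kb in control mesenchyme, 41.2 and 20.5 CPM per kb in mutant-labelled and control E14.5 epithelium, and 48.6 and 37.6 CPM per kb in mutant-labelled and control E12.5 epithelium. The highest receptor level in each of the 6 libraries was that of Ephb4, an EphB receptor known from veins and its pairing with ephrin-B2, at between 33.6 and 51.8 CPM per kb. Ephb4 took 20.4% to 25.7% of the summed receptor level.

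**Figure D1:**
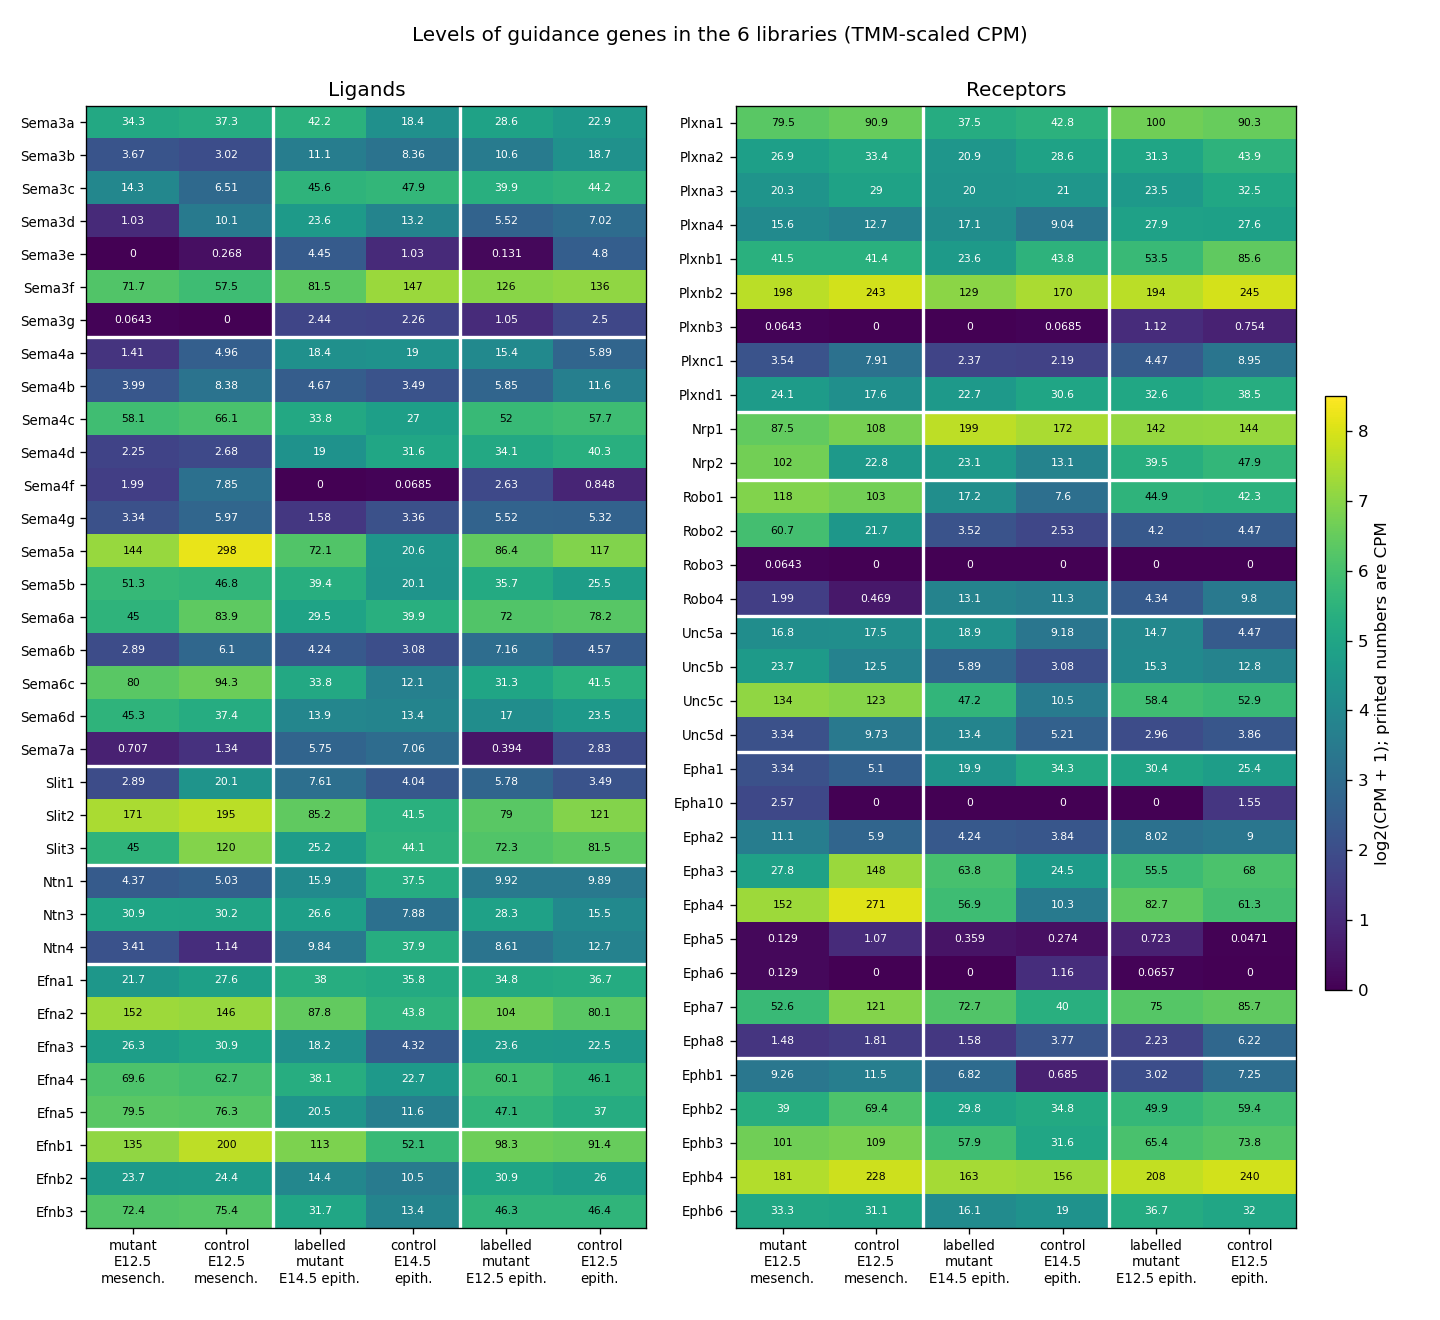
Levels of the 34 ligand genes (left) and 33 receptor genes (right), in rows grouped by family, in the 6 libraries in columns. The colour gives log2(CPM + 1) and the printed numbers give TMM-scaled CPM. Along their rows, Robo1, Robo2 and Unc5c are highest in the mesenchyme columns, Sema3c and Sema4d are highest in the epithelial columns, and 7 genes stay under 5 CPM throughout.

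Summed per kilobase, ligands exceeded receptors in every library. The ligand sum was 318 CPM per kb in mutant and 367 CPM per kb in control mesenchyme, 230 and 176 CPM per kb in mutant-labelled and control E14.5 epithelium, and 282 and 268 CPM per kb in mutant-labelled and control E12.5 epithelium. The receptor sum was 190 CPM per kb in mutant and 237 CPM per kb in control mesenchyme, 147 and 131 CPM per kb in mutant-labelled and control E14.5 epithelium, and 188 and 207 CPM per kb in mutant-labelled and control E12.5 epithelium. The ratio of the ligand to the receptor sum was 1.67 in mutant and 1.55 in control mesenchyme, 1.56 and 1.34 in mutant-labelled and control E14.5 epithelium, and 1.5 and 1.29 in mutant-labelled and control E12.5 epithelium. In each fraction and stage, the ratio was thus higher in the library labelled mutant than in its control. A few genes weigh heavily in these sums, since Efna2 alone gave 14.0% to 22.5% of the ligand sum in the 5 libraries it led. The ephrin-A family summed to 157 CPM per kb in mutant and 154 CPM per kb in control mesenchyme. It gave 98.4 and 59.0 CPM per kb in mutant-labelled and control E14.5 epithelium, and 127 and 105 CPM per kb at E12.5. Without this family the ligand sum would lie under the receptor sum in every library. The ligand to receptor ratio in mesenchyme would then be lower in the mutant than in the control library.

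**Figure D2:**
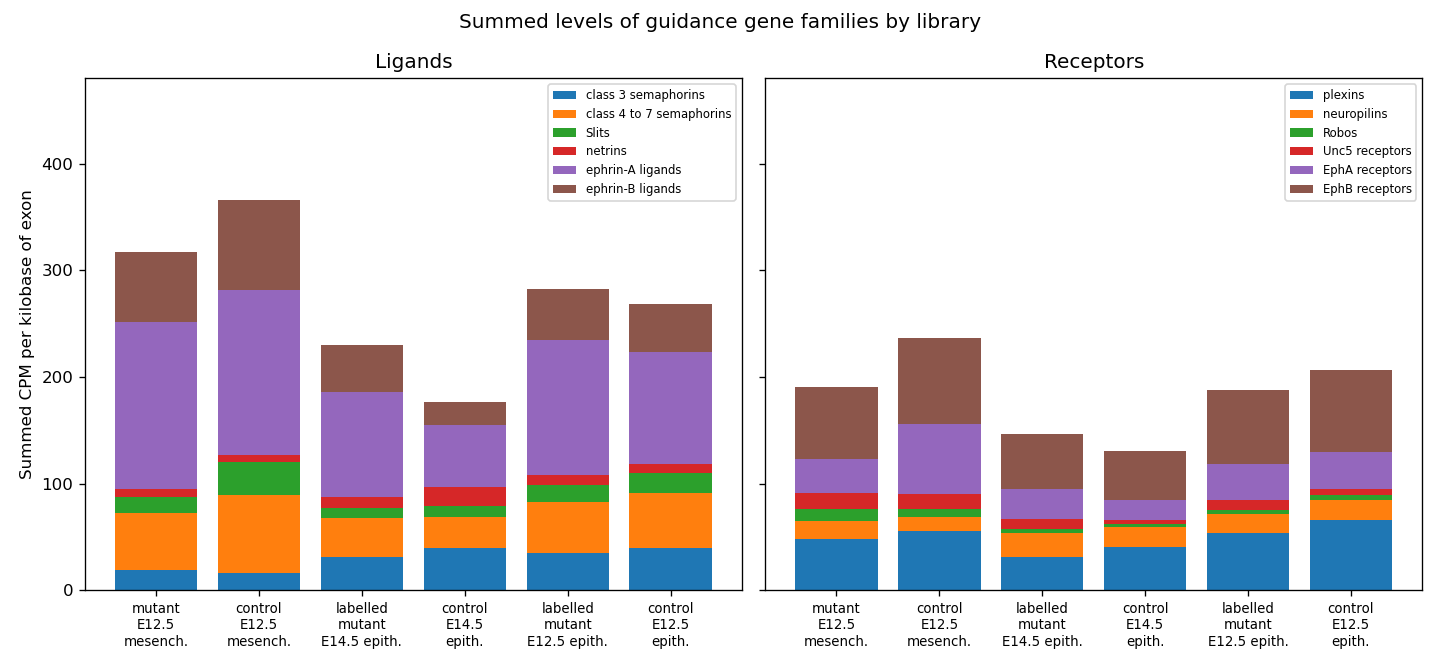
Summed level per kilobase of exon (CPM per kb) of ligand and receptor genes in each library, stacked by family. Bars start at 0 and each stands for 1 library, so there is no error bar; the ligand sums run from 176 to 367 and the receptor sums from 131 to 237.

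The comparison of fractions asked which guidance genes were higher in the mesenchyme libraries and which in the epithelial libraries. The epithelial libraries were mixed. General mesenchymal genes summed to 8010 and 6720 CPM in mutant-labelled and control E12.5 epithelium, against 12800 and 14100 CPM in mutant and control mesenchyme. The endothelial and leukocyte lists also summed higher in E12.5 epithelium than in mesenchyme. A ratio therefore does not assign a gene to a cell type, and the part of these cell types was not tested. In control E12.5 mesenchyme against control E12.5 epithelium, 13 of 59 measured members were higher and 12 were lower. These are 22.0% and 20.3% of the members, where 7.0% and 13.6% of all 12066 measured genes were higher and lower. Their median log2 ratio was 0.20, against 0.03 over all genes. Between the mutant pair, 8 of 54 members were higher in mesenchyme and 9 were lower, or 14.8% and 16.7%, where 5.42% and 12.9% of all genes were higher and lower. Their median was -0.21, against 0.03 over all genes.

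**Figure D3:**
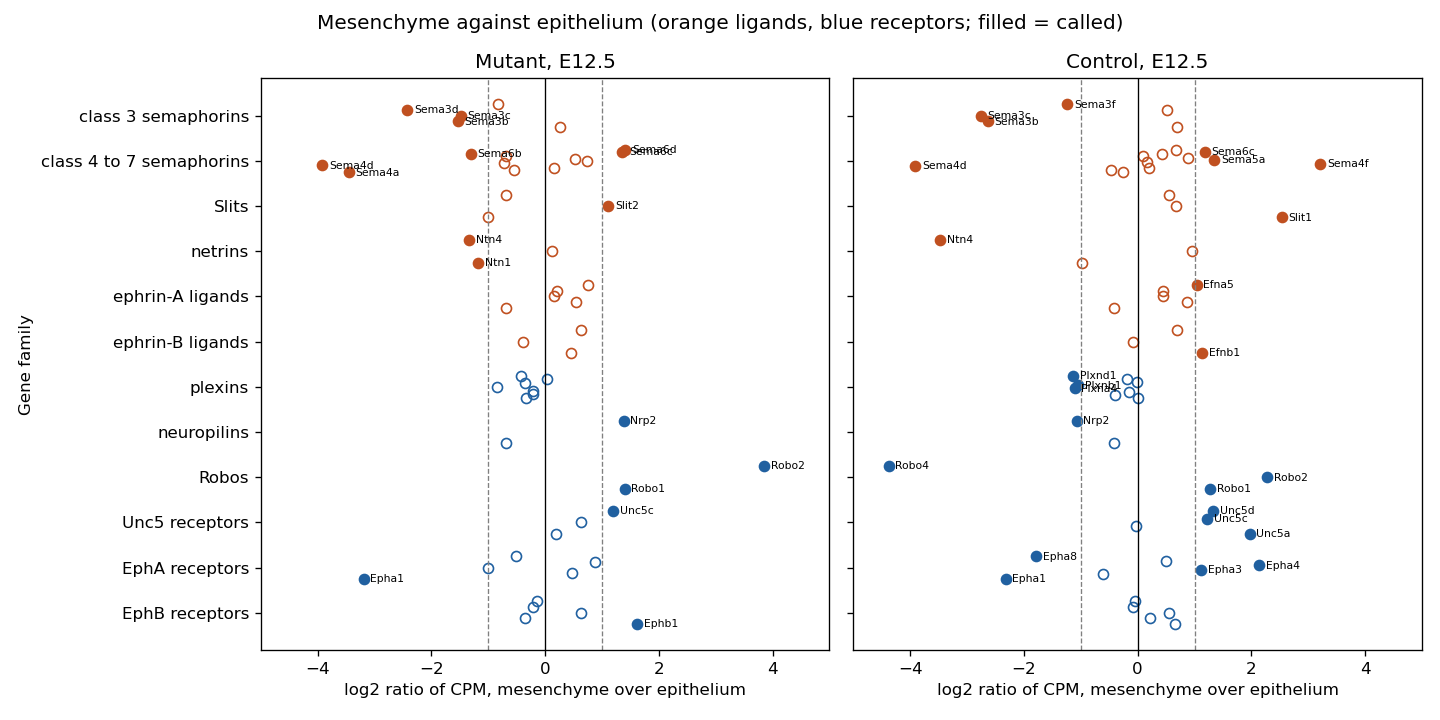
Log2 ratio of E12.5 mesenchyme over E12.5 epithelium for each measured member, by family, for the mutant pair and the control pair of libraries. Each point is 1 gene; Nrp2 lies at 1.38 in the mutant pair and at -1.07 in the control pair.

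Of 31 measured ligands, 6 were higher in control mesenchyme: Slit1, Efnb1, Efna5, Sema4f, Sema5a and Sema6c. In the mutant pair 3 of 30 were, namely Slit2, Sema6c and Sema6d. Lower in mesenchyme were 8 ligands in the mutant pair and 5 in the control pair. The median log2 ratio of the ligands was -0.47 in the mutant pair and 0.45 in the control pair. The 8 included Sema4a, at 1.41 CPM in mutant mesenchyme and 15.4 CPM in mutant-labelled E12.5 epithelium, and Ntn1, at 4.37 and 9.92 CPM. Sema5a, a transmembrane semaphorin with thrombospondin repeats, stood at 144 CPM in mutant and 298 CPM in control mesenchyme, 72.1 and 20.6 CPM in mutant-labelled and control E14.5 epithelium, and 86.4 and 117 CPM in mutant-labelled and control E12.5 epithelium. It was 2.55-fold higher in mesenchyme in the control pair. Sema6c, a ligand of class A plexins, stood at 80 CPM in mutant and 94.3 CPM in control mesenchyme, 33.8 and 12.1 CPM in mutant-labelled and control E14.5 epithelium, and 31.3 and 41.5 CPM in mutant-labelled and control E12.5 epithelium. Its mesenchymal excess was 2.56-fold in the mutant pair and 2.27-fold in the control pair. Slit1 was 5.77-fold higher in mesenchyme in the control pair (interval 4.46 to 7.55), with 20.1 CPM in control mesenchyme and 3.49 CPM in control epithelium. In the mutant pair the mesenchyme held 2.89 CPM of Slit1, against 5.78 CPM in the epithelium. Slit2 stood at 171 CPM in mutant and 195 CPM in control mesenchyme, 85.2 and 41.5 CPM in mutant-labelled and control E14.5 epithelium, and 79 and 121 CPM in mutant-labelled and control E12.5 epithelium. Only the mutant pair passed the threshold, at 2.16-fold, and the control pair gave 1.61-fold. The ephrins Efnb1 (2.18-fold) and Efna5 (2.06-fold) were higher in control mesenchyme, with 200 and 76.3 CPM there, against 91.4 and 37.0 CPM in control E12.5 epithelium. Their ratios in the mutant pair stayed under the threshold. Efnb1, which encodes a transmembrane ephrin, held 135 CPM in mutant and 200 CPM in control mesenchyme, 113 and 52.1 CPM in mutant-labelled and control E14.5 epithelium, and 98.3 and 91.4 CPM in mutant-labelled and control E12.5 epithelium. The corresponding levels of Efna5, which encodes a lipid-anchored ephrin, were 79.5 CPM in mutant and 76.3 CPM in control mesenchyme, 20.5 and 11.6 CPM in mutant-labelled and control E14.5 epithelium, and 47.1 and 37 CPM in mutant-labelled and control E12.5 epithelium. Both were lower in the control E14.5 epithelium than in any other library. Sema4f was 9.26-fold higher in control mesenchyme than in control E12.5 epithelium, but at no more than 7.85 CPM in any library.

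The called class 3 semaphorins, which are secreted, ran the other way. Of the 5 measured, 3 were lower in mesenchyme in each pair and none was higher. Sema3b and Sema3c were lower in both pairs, Sema3f in the control pair alone and Sema3d in the mutant pair alone. Without a call, Sema3a stood at 37.3 CPM in control mesenchyme, above 22.9 CPM in control E12.5 epithelium. For Sema3d these were 10.1 and 7.02 CPM, against 1.03 and 5.52 CPM in the mutant pair. Sema3c, a ligand of both neuropilins, stood at 14.3 CPM in mutant and 6.51 CPM in control mesenchyme, 45.6 and 47.9 CPM in mutant-labelled and control E14.5 epithelium, and 39.9 and 44.2 CPM in mutant-labelled and control E12.5 epithelium. All 4 epithelial libraries lay above both mesenchyme libraries. Sema3b, another secreted ligand of neuropilins, stood at 3.67 CPM in mutant and 3.02 CPM in control mesenchyme, 11.1 and 8.36 CPM in mutant-labelled and control E14.5 epithelium, and 10.6 and 18.7 CPM in mutant-labelled and control E12.5 epithelium. Sema3f, a ligand of Nrp2, was 2.36-fold lower in control mesenchyme, with 57.5 CPM there and 136 CPM in control E12.5 epithelium. In the mutant pair the mesenchyme held 71.7 CPM, against 126 CPM in the epithelium, a 1.76-fold difference. At E14.5 the library labelled mutant held 81.5 CPM of Sema3f and the control 147 CPM. Sema4d, the ligand of Plxnb1, showed the widest ligand difference in both pairs. It had 2.25 CPM in mutant and 2.68 CPM in control mesenchyme, 19.0 and 31.6 CPM in mutant-labelled and control E14.5 epithelium, and 34.1 and 40.3 CPM in mutant-labelled and control E12.5 epithelium, and was 15.1-fold lower in mesenchyme in the mutant pair and 15-fold lower in the control pair. Sema4d is also expressed by leukocytes, and the leukocyte list of 17 genes summed to 50.6 CPM in mutant and 102 CPM in control mesenchyme, against 387 and 570 CPM in mutant-labelled and control E12.5 epithelium; its part in the Sema4d result was not tested. Ntn4, a netrin that binds laminin, stood at 3.41 CPM in mutant and 1.14 CPM in control mesenchyme, 9.84 and 37.9 CPM in mutant-labelled and control E14.5 epithelium, and 8.61 and 12.7 CPM in mutant-labelled and control E12.5 epithelium. It was 2.53-fold lower in mesenchyme in the mutant pair and 11.1-fold lower in the control pair.

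Of 28 measured receptors, 7 were higher in control mesenchyme, namely Robo1, Robo2, Unc5a, Unc5c, Unc5d, Epha3 and Epha4, and in the mutant pair 5 of 24 were. Lower in mesenchyme were 1 receptor in the mutant pair and 7 in the control pair. The median log2 ratio of the receptors was -0.17 in the mutant pair and -0.04 in the control pair. Robo1, the main Slit receptor of many tissues, stood at 118 CPM in mutant and 103 CPM in control mesenchyme, 17.2 and 7.6 CPM in mutant-labelled and control E14.5 epithelium, and 44.9 and 42.3 CPM in mutant-labelled and control E12.5 epithelium. It was 2.63-fold higher in mesenchyme in the mutant pair and 2.43-fold higher in the control pair. Robo2, its close relative, stood at 60.7 CPM in mutant and 21.7 CPM in control mesenchyme, 3.52 and 2.53 CPM in mutant-labelled and control E14.5 epithelium, and 4.2 and 4.47 CPM in mutant-labelled and control E12.5 epithelium, and was 14.4-fold higher in mesenchyme in the mutant pair and 4.86-fold higher in the control pair. Both mesenchyme libraries lay far above all 4 epithelial libraries for Robo2. Robo4, a vascular member, went the other way in the control pair, with 0.469 CPM in control mesenchyme and 9.8 CPM in control E12.5 epithelium, or 20.9-fold lower. It stood at 1.99 CPM in mutant mesenchyme, 13.1 and 11.3 CPM in mutant-labelled and control E14.5 epithelium, and 4.34 CPM in mutant-labelled E12.5 epithelium. The endothelial list of 20 genes summed to 143 CPM in mutant and 130 CPM in control mesenchyme, against 612 and 489 CPM in mutant-labelled and control E12.5 epithelium, and its part in the Robo4 result was not tested. Of the 4 netrin receptors of the Unc5 family, 3 were higher in control mesenchyme. Unc5c stood at 134 CPM in mutant and 123 CPM in control mesenchyme, 47.2 and 10.5 CPM in mutant-labelled and control E14.5 epithelium, and 58.4 and 52.9 CPM in mutant-labelled and control E12.5 epithelium, and was 2.3-fold higher in mesenchyme in the mutant pair and 2.32-fold higher in the control pair. Unc5a (3.91-fold) and Unc5d (2.52-fold) passed the threshold in the control pair alone. Unc5a stood at 16.8 CPM in mutant and 17.5 CPM in control mesenchyme, 18.9 and 9.18 CPM in mutant-labelled and control E14.5 epithelium, and 14.7 and 4.47 CPM in mutant-labelled and control E12.5 epithelium, so the control E12.5 epithelium was its lowest library. Unc5d stood at 3.34 CPM in mutant and 9.73 CPM in control mesenchyme, 13.4 and 5.21 CPM in mutant-labelled and control E14.5 epithelium, and 2.96 and 3.86 CPM in mutant-labelled and control E12.5 epithelium.

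The Eph receptors split by member. Epha4, an EphA receptor that also binds ephrin-B ligands, stood at 152 CPM in mutant and 271 CPM in control mesenchyme, 56.9 and 10.3 CPM in mutant-labelled and control E14.5 epithelium, and 82.7 and 61.3 CPM in mutant-labelled and control E12.5 epithelium. It was 4.42-fold higher in control mesenchyme than in control E12.5 epithelium. Epha3 was 2.17-fold higher in control mesenchyme, whereas Epha1 was 9.1-fold lower in mesenchyme in the mutant pair and 4.98-fold lower in the control pair, with 3.34 CPM in mutant and 5.1 CPM in control mesenchyme, 19.9 and 34.3 CPM in mutant-labelled and control E14.5 epithelium, and 30.4 and 25.4 CPM in mutant-labelled and control E12.5 epithelium. Epha1 shares 6.01% of its exon bases with Zyx on the opposite strand, and the sources do not state whether counting used strand. Epha8 was also lower in control mesenchyme, at 1.81 CPM, against 6.22 CPM in control epithelium. All 5 EphB genes lay within 2-fold in the control pair, and Ephb1 alone, at 3.06-fold higher, passed in the mutant pair. Plexins were level or lower in mesenchyme: Plxnb1 (2.06-fold), Plxnd1 (2.19-fold) and Plxna4 (2.16-fold) were lower in the control pair, and none of 7 passed in the mutant pair. Plxnb1, the receptor of Sema4d, stood at 41.5 CPM in mutant and 41.4 CPM in control mesenchyme, 23.6 and 43.8 CPM in mutant-labelled and control E14.5 epithelium, and 53.5 and 85.6 CPM in mutant-labelled and control E12.5 epithelium. Plxnd1, a receptor for Sema3e that is known from vessels, stood at 24.1 CPM in mutant and 17.6 CPM in control mesenchyme, 22.7 and 30.6 CPM in mutant-labelled and control E14.5 epithelium, and 32.6 and 38.5 CPM in mutant-labelled and control E12.5 epithelium. The levels of Plxna4, which partners with neuropilins, were 15.6 CPM in mutant and 12.7 CPM in control mesenchyme, 17.1 and 9.04 CPM in mutant-labelled and control E14.5 epithelium, and 27.9 and 27.6 CPM in mutant-labelled and control E12.5 epithelium. None of these plexins was absent from a library, and the mesenchyme and epithelium levels overlapped for all 3 once E14.5 was included.

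The 2 fraction comparisons share no library. Over the 54 members measured in both, Sema6c, Robo1, Robo2 and Unc5c were higher in mesenchyme in both pairs, which is 50% of the 8 called in the mutant pair and 36.4% of the 11 called in the control pair. The 5 genes Sema3b, Sema3c, Sema4d, Ntn4 and Epha1 were lower in both, or 55.6% of 9 and 50% of 10. Over all genes, the shares were 51.0% and 38.5% for higher calls, and 80.3% and 80.0% for lower calls. Nrp2 was the 1 member called in opposite directions, and 5 genes in all 11683 were called higher in the mutant pair and lower in the control pair.

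In mutant against control E12.5 mesenchyme, where Cre was directed, the called guidance genes were mostly lower. Of 53 measured members, 11 were lower and 3 were higher, or 20.8% and 5.66%, where 3.5% and 1.96% of all 11188 measured genes were lower and higher. The median log2 ratio of the members was -0.20, against -0.01 over all genes. The control mesenchyme library also entered the control fraction comparison. Slit1, Sema4f, Sema5a, Unc5d and Epha3 were called higher in that library in both comparisons, and Nrp2 and Sema3c were called lower. Their calls in both comparisons are thus not separate evidence. The same holds for the mutant mesenchyme library, which also entered the mutant fraction comparison. Such calls include Nrp2 and Robo2, higher in that library in both comparisons, and Sema3d, lower in both. By family, 4 of 10 class 4 to 7 semaphorins, 2 of 3 Slits and 2 of 5 EphA receptors were lower, while none of the 5 EphB receptors and none of the 8 ephrins passed in either direction.

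**Figure D4:**
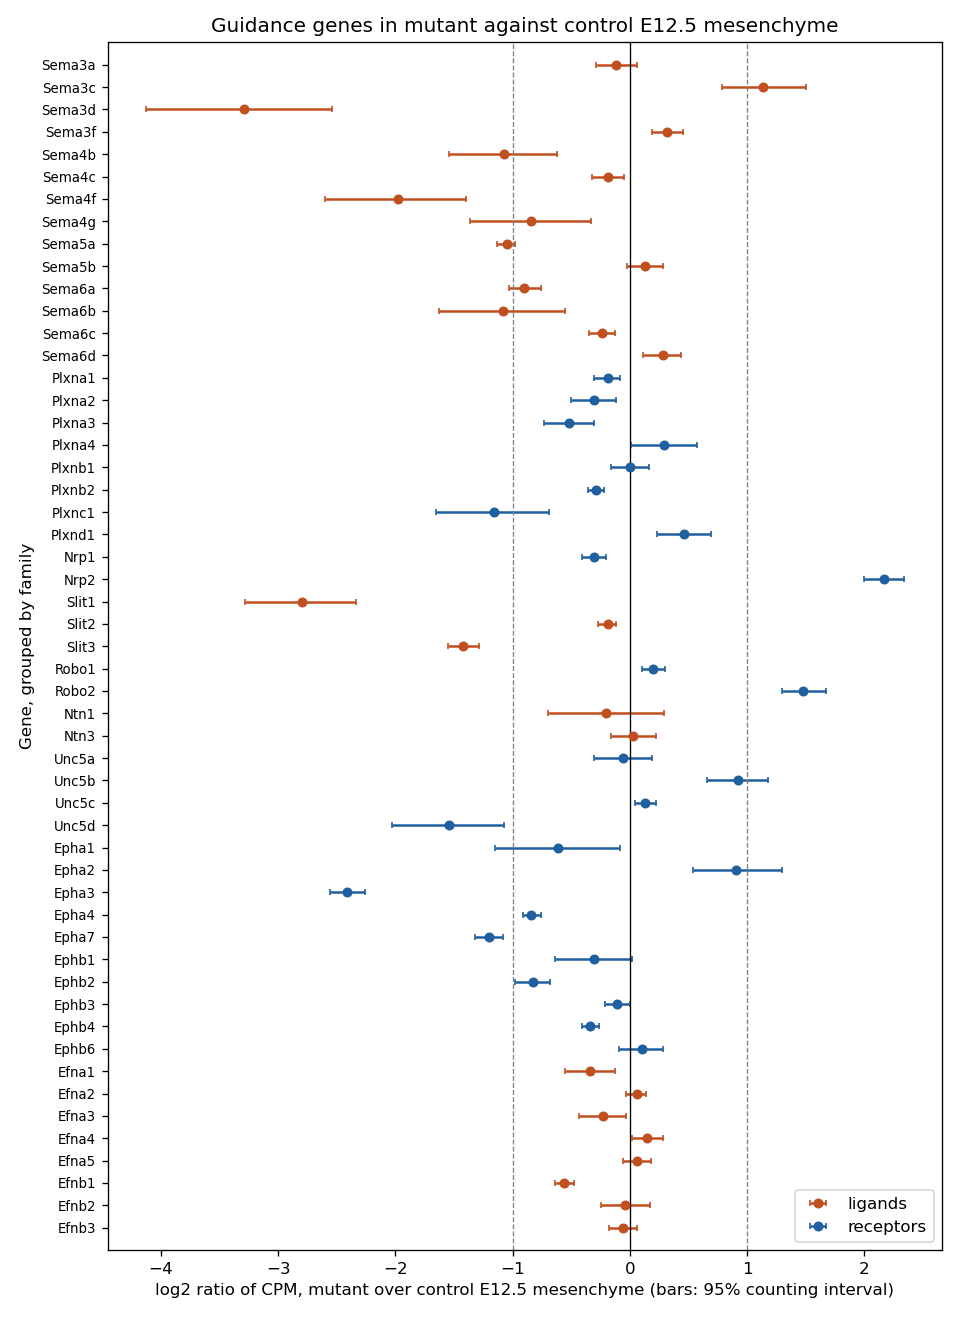
Log2 ratio of mutant over control E12.5 mesenchyme for the measured members, by family, with 95% intervals for counting error and dashed lines at the 2-fold threshold. Sema3d lies lowest at -3.29 and Nrp2 highest at 2.17.

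Among ligands, Sema3d stood furthest from the control. Sema3d, a secreted semaphorin known for its part in vascular and nerve patterning, stood at 1.03 CPM in mutant and 10.1 CPM in control mesenchyme, 23.6 and 13.2 CPM in mutant-labelled and control E14.5 epithelium, and 5.52 and 7.02 CPM in mutant-labelled and control E12.5 epithelium. It was 9.78-fold lower in mutant mesenchyme (interval 5.83 to 17.5), the lowest of the 6 libraries. The Slits are the repellent ligands of the Robos. Slit1 had 2.89 CPM in mutant and 20.1 CPM in control mesenchyme, and 7.61, 4.04, 5.78 and 3.49 CPM in mutant-labelled E14.5, control E14.5, mutant-labelled E12.5 and control E12.5 epithelium, so the control mesenchyme library stood alone as high. It was 6.95-fold lower in mutant mesenchyme (interval 5.07 to 9.74). Slit3 stood at 45 CPM in mutant and 120 CPM in control mesenchyme, 25.2 and 44.1 CPM in mutant-labelled and control E14.5 epithelium, and 72.3 and 81.5 CPM in mutant-labelled and control E12.5 epithelium, and was 2.68-fold lower in mutant mesenchyme (interval 2.45 to 2.93). Slit2 lay close to its control, at 171 CPM in mutant and 195 CPM in control mesenchyme. Of the membrane semaphorins, Sema5a was 2.07-fold lower, at 144 CPM in mutant and 298 CPM in control mesenchyme. Sema4f (3.94-fold), Sema4b (2.1-fold) and Sema6b (2.11-fold) were lower from control levels between 6.1 and 8.38 CPM. All genes with a mean of 5 to 10 CPM over the 2 libraries spread with an SD of 0.887 in log2 ratio. The means of Sema3d and Sema4b lay in that range, and those of Sema4f and Sema6b lay under it. Sema3c was the only ligand called higher, at 2.2-fold.

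Receptors moved both ways. Epha3, a receptor for ephrin-A ligands, stood at 27.8 CPM in mutant and 148 CPM in control mesenchyme, 63.8 and 24.5 CPM in mutant-labelled and control E14.5 epithelium, and 55.5 and 68 CPM in mutant-labelled and control E12.5 epithelium. It was 5.32-fold lower in mutant mesenchyme (interval 4.8 to 5.92). Epha7, also an ephrin-A receptor, stood at 52.6 CPM in mutant and 121 CPM in control mesenchyme, 72.7 and 40 CPM in mutant-labelled and control E14.5 epithelium, and 75 and 85.7 CPM in mutant-labelled and control E12.5 epithelium. It was 2.3-fold lower in mutant mesenchyme (interval 2.12 to 2.5), and Epha4, at 152 CPM in mutant and 271 CPM in control mesenchyme, lay just outside the threshold at 1.79-fold lower. Unc5d (2.91-fold) and the Sema7a receptor gene Plxnc1 (2.24-fold) were lower from control levels under 10 CPM.

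Nrp2 and Robo2 were the receptors higher in mutant mesenchyme. Nrp2, the co-receptor that binds Sema3f and lymphatic VEGF ligands, stood at 102 CPM in mutant and 22.8 CPM in control mesenchyme, 23.1 and 13.1 CPM in mutant-labelled and control E14.5 epithelium, and 39.5 and 47.9 CPM in mutant-labelled and control E12.5 epithelium. It was 4.49-fold higher in mutant mesenchyme (interval 3.99 to 5.07), and mutant mesenchyme was the highest of the 6 libraries. Its relative Nrp1 stood at 87.5 CPM in mutant and 108 CPM in control mesenchyme, a ratio within 2-fold. Robo2 was 2.79-fold higher in mutant mesenchyme (interval 2.46 to 3.18), whereas Robo1, 846 kb away on chromosome 16, stood at 118 CPM in mutant and 103 CPM in control mesenchyme. Other cell type lists also moved between these libraries: the leukocyte list was lower in 6 of 7 measured genes, the erythroid list in 3 of 3, the smooth muscle and pericyte list in 4 of 10 and the mesothelial list in 3 of 7, and the endothelial list was higher in 2 of 6. The neural crest, glial and neuronal list was higher in 3 and lower in 1 of 8, with sums of 389 CPM in mutant and 261 CPM in control mesenchyme. Its higher genes were Nefl, at 176 CPM in mutant and 73.6 CPM in control mesenchyme, Elavl4, at 31.6 CPM in mutant and 4.36 CPM in control mesenchyme, and Ngfr, at 12.7 CPM in mutant and 4.76 CPM in control mesenchyme. The lower gene of this list was Stmn2, at 0.322 CPM in mutant and 5.77 CPM in control mesenchyme. Its members Sox10, Foxd3 and Elavl3 were among those with no count in either library. The part of these lists in the guidance gene results was not tested.

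Promoter sequence was read for the 4 members with the largest calls in mutant mesenchyme for which RefSeq start sites were at hand, 2 higher and 2 lower, to show what the start regions of genes moving in opposite directions look like. Each run is 300 bases, 250 before to 50 after the start, on the GRCm38.p6 build and the strand of the gene, with CG dinucleotides in capitals. Nrp2 is at chr1:62703067-62703366 on the plus strand, Robo2 at chr16:74411776-74412075 on the minus strand, Sema3d at chr5:12382916-12383215 on the plus strand and Epha3 at chr16:63864126-63864425 on the minus strand.
Nrp2: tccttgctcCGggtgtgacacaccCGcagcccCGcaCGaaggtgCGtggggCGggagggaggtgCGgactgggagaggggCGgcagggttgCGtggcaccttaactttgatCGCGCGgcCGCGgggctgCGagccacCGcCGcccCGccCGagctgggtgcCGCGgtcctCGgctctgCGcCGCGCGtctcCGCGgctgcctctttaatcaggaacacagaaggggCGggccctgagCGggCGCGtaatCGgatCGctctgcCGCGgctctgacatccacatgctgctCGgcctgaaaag
Robo2: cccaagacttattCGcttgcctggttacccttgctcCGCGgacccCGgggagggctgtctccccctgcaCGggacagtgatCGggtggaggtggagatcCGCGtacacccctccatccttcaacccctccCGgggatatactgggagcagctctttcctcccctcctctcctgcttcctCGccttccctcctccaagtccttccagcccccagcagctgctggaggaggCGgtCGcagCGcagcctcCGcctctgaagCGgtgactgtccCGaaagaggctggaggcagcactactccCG
Sema3d: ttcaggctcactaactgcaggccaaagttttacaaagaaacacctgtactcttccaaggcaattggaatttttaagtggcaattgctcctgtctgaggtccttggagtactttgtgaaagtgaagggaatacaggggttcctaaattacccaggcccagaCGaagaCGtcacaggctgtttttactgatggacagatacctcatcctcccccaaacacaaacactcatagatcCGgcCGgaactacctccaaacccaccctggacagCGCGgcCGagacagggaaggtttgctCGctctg
Epha3: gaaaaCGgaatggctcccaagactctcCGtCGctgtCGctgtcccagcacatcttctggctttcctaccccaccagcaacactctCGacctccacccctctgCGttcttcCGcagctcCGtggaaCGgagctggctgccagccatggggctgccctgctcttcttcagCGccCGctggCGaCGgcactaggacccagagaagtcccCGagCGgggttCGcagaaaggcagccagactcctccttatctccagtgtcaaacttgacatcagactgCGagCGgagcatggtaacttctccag

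The CG dinucleotides numbered 37 in Nrp2, 17 in Robo2, 8 in Sema3d and 18 in Epha3, and the GC content was 70.7%, 65.0%, 49.7% and 60.7% in that order of genes. Sema3d, the gene with the fewest, lay near the median of 7 over all 32851 promoters of the table, while the other 3 lay above it. The 74 promoters of the 58 members found there had a median of 19.5 CG dinucleotides and 64.3% GC, against 52.7% GC over all promoters. Pbx proteins bind DNA with Hox and Meis partners, so 3 motifs were looked for on both strands. TGATTNAT, a Pbx-Hox composite, was in none of the 74 and in 3.22% of all promoters. TGATTGAC, a Pbx-Pknox composite, was in none of the 74 and in 0.77% of all. TGACAG, a Meis and Pknox site, was in 13 of the 74 (17.6%) and in 19.2% of all, and none of the 3 was in the 4 printed promoters. These counts describe letters in a short window, and binding was not measured.

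In E12.5 epithelium, few guidance genes differed between the library labelled mutant and the control. Of 56 measured members, 2 were higher and 4 were lower, or 3.57% and 7.14%, where 1.79% and 3.21% of all 11991 genes were higher and lower. The median log2 ratio was -0.13, against 0.00 over all genes. Unc5a, a netrin receptor linked to cell death when unbound, was 3.27-fold higher (interval 2.56 to 4.21), with 14.7 CPM in the library labelled mutant and 4.47 CPM in the control. Sema4a, a membrane semaphorin known from immune cells, was 2.62-fold higher, and held 1.41 CPM in mutant and 4.96 CPM in control mesenchyme, 18.4 and 19 CPM in mutant-labelled and control E14.5 epithelium, and 15.4 and 5.89 CPM in mutant-labelled and control E12.5 epithelium. The lower genes were the receptors Epha8, Ephb1, Robo4 and Plxnc1, between 2-fold and 2.78-fold, all from control levels under 10 CPM. The control E12.5 epithelium library also entered the control fraction comparison. Calls of Unc5a, Robo4 and Epha8 in both comparisons are thus not separate evidence. None of the ephrins, Slits or netrins was called in either direction. The smooth muscle and pericyte list was higher in 4 of 12 measured genes, the mesothelial list in 2 of 8 and the general mesenchymal list in 2 of 27. The endocrine list was lower in 3 of 12, and 0 of 24 general epithelial genes were called. The part of these cell types in the guidance gene calls was not tested.

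In E14.5 epithelium, many more members differed. Of 52 measured members, 16 were higher in the library labelled mutant and 2 were lower, or 30.8% and 3.85%, where 9.64% and 6.40% of all 12145 genes were higher and lower. The median log2 ratio was 0.60, against -0.03 over all genes. The 9 ligands higher were Sema3a, Sema5a, Sema6c, Slit2, Ntn3, Efna2, Efna3, Efnb1 and Efnb3, and the 7 receptors higher were Robo1, Unc5a, Unc5c, Unc5d, Epha3, Epha4 and Ephb1.

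Among the ligands, Sema5a stood at 72.1 CPM in the library labelled mutant and 20.6 CPM in the control, 3.5-fold higher. Ntn3, a netrin, stood at 26.6 CPM in the library labelled mutant and 7.88 CPM in the control, 3.37-fold higher. Efna3, an ephrin-A, stood at 18.2 CPM in the library labelled mutant and 4.32 CPM in the control, 4.23-fold higher, although 14.1% of its exon bases overlap an antisense gene. Slit2 was 2.05-fold higher, with 85.2 CPM in the library labelled mutant and 41.5 CPM in the control. Sema3a, the founding secreted semaphorin, was 2.29-fold higher and stood at 34.3 CPM in mutant and 37.3 CPM in control mesenchyme, 42.2 and 18.4 CPM in mutant-labelled and control E14.5 epithelium, and 28.6 and 22.9 CPM in mutant-labelled and control E12.5 epithelium. Efnb3, the third ephrin-B, was 2.37-fold higher and stood at 72.4 CPM in mutant and 75.4 CPM in control mesenchyme, 31.7 and 13.4 CPM in mutant-labelled and control E14.5 epithelium, and 46.3 and 46.4 CPM in mutant-labelled and control E12.5 epithelium. For Efnb3 the 2 mesenchyme libraries lay above all 4 epithelial ones, and the control E14.5 epithelium was lowest. Sema6c (2.81-fold), Efnb1 (2.17-fold) and Efna2 (2.01-fold) made up the rest of the higher ligands. The 2 lower ligands were both netrins. Ntn4 stood at 9.84 CPM in the library labelled mutant and 37.9 CPM in the control, 3.86-fold lower (interval 3.19 to 4.68), and Ntn1, the classical netrin, stood at 15.9 CPM in the library labelled mutant and 37.5 CPM in the control, 2.35-fold lower (interval 2.01 to 2.76). The 3 netrins thus did not move together.

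Among the receptors, Epha4 stood at 56.9 CPM in the library labelled mutant and 10.3 CPM in the control, 5.51-fold higher (interval 4.62 to 6.6). Unc5c stood at 47.2 CPM in the library labelled mutant and 10.5 CPM in the control, 4.47-fold higher (interval 3.75 to 5.37). Ephb1, a low gene, stood at 6.82 CPM in the library labelled mutant and 0.685 CPM in the control, 9.96-fold higher (interval 5.19 to 21.4). Epha3 (2.6-fold), Unc5d (2.58-fold), Robo1 (2.27-fold) and Unc5a (2.06-fold) were the other receptors higher. No receptor was lower, and none of the 7 measured plexins passed the threshold. Nrp1, Plxnb2 and Ephb4, each above 100 CPM in both libraries, lay within 2-fold.

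Mesenchymal transcripts moved with this comparison. The general mesenchymal list was higher in the library labelled mutant in 22 of 28 measured genes, with a median log2 ratio of 1.3 and sums of 14800 CPM in that library and 7070 CPM in the control, the smooth muscle and pericyte list was higher in 9 of 12, and the neural crest, glial and neuronal list was higher in 11 of 15 with a median of 1.42. The acinar list was lower in 10 of 10, with a median of -2.19 and sums of 3640 CPM in the library labelled mutant and 14400 CPM in the control. The general epithelial list was lower in 12 of 24, with sums of 4690 CPM in the library labelled mutant and 8510 CPM in the control. Relative to the median of the mesenchymal list, a measure chosen after seeing the data, 2 members, Ephb1 and Epha4, were higher and 23 were lower. These are 3.85% and 44.2% of the members, where 1.3% and 72.2% of all genes were higher and lower on that scale. Relative to the median of the epithelial list 34 were higher and 0 were lower, or 65.4% and 0% of the members, where the shares of all genes were 44.4% and 1.22%. Each scale moves every log2 ratio by the same amount, so the split follows from the genes taken as level. The part of these cell types in the guidance gene calls was not tested.

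The calls at E14.5 overlapped those between fractions, from libraries that the 2 comparisons do not share. Over the 51 members measured in both, 9 of the 11 higher in control mesenchyme than in control E12.5 epithelium were also higher in the mutant-labelled than in the control E14.5 epithelium, which is 81.8% of the first list and 56.2% of the 16 in the second. These were Sema5a, Sema6c, Robo1, Unc5a, Unc5c, Unc5d, Epha3, Epha4 and Efnb1. Of the 11 lower in mesenchyme, none was higher and Ntn4 was lower, which is 9.09% of the 11 and 50% of the 2 lower at E14.5, where the shares over all genes were 25.6% and 62.9%. For the higher calls over all genes, 436 were higher in both, or 63.6% of 686 and 42.8% of 1019. Across the 51 members the log2 ratios of the 2 comparisons had a Pearson r of 0.62 and a Spearman rho of 0.74, and across 11576 genes 0.42 and 0.49. These values are descriptions across genes of the same libraries, and genes are not independent replicates.

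**Figure D5:**
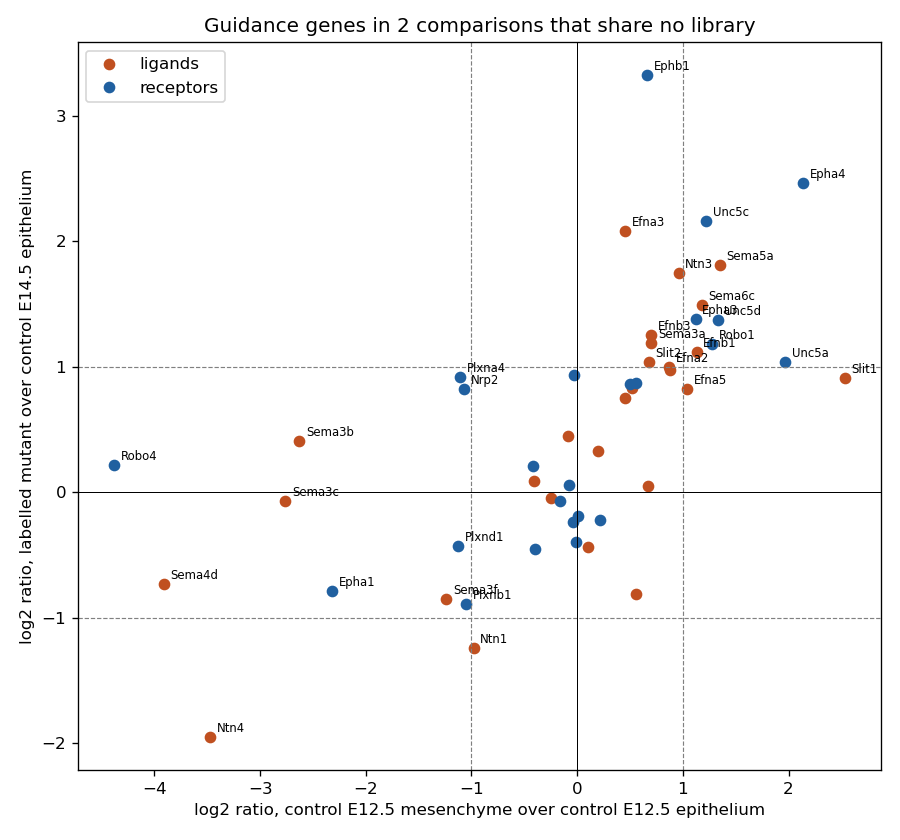
Log2 ratio of the mutant-labelled over the control E14.5 epithelium against the log2 ratio of control E12.5 mesenchyme over control E12.5 epithelium, for the 51 members measured in both. Each point is 1 gene, with dashed lines at the 2-fold thresholds; 9 genes lie in the corner higher in both and Ntn4 in the corner lower in both.

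Sema5a, Unc5d and Epha3 were lower in mutant mesenchyme and higher in the mutant-labelled E14.5 epithelium. Epha3 showed this with 27.8 CPM in mutant and 148 CPM in control mesenchyme, against 63.8 CPM in the mutant-labelled and 24.5 CPM in the control E14.5 epithelium. These are 42.9% of the 7 lower in mesenchyme and 18.8% of the 16 higher in epithelium among members measured in both, where the shares over all genes were 31.8% and 9.57%. With only 7 lower and 2 higher members in mesenchyme here, none was called in the same direction in both, where over all genes 11.4% of the lower and 26.3% of the higher genes were.

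With stage, the called guidance genes of control epithelium were mostly lower. Of 56 measured members in control E14.5 against control E12.5 epithelium, 5 were higher and 24 were lower, or 8.93% and 42.9%, where 6.53% and 11.2% of all 12136 genes were higher and lower. The median log2 ratio was -0.88, against -0.03 over all genes. When ratios were instead taken relative to general epithelial genes, whose median lay above that of all genes at E14.5, 1 was higher and 43 were lower, or 1.79% and 76.8%, where 2.0% and 44.8% of all genes were. Cell type lists moved with stage in the control libraries: the acinar list was higher in 10 of 10 measured genes and the endocrine list in 8 of 14, while the general mesenchymal list was higher in 4 and lower in 7 of 27, the endothelial list was lower in 7 of 18, and the neural crest, glial and neuronal list was higher in 1 and lower in 5 of 14. Their part in the stage calls was not tested. Between the libraries labelled mutant, 5 of 56 members were higher and 10 were lower, or 8.93% and 17.9%, where 6.27% and 5.89% of all 12167 genes were higher and lower, and the median was -0.32. There the endocrine list was higher in 11 of 14 measured genes, the acinar list in 6 of 9 and the leukocyte list in 7 of 16. The general mesenchymal list was higher in 8 of 28 and the neural crest, glial and neuronal list in 6 of 15. The smooth muscle and pericyte list was higher in 6 and lower in 1 of 12. The part of these lists was not tested either.

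Of the 3 netrin ligands, 2 were higher with stage in control epithelium. Ntn1 was 3.8-fold higher, with 37.5 CPM at E14.5 and 9.89 CPM at E12.5, and Ntn4 was 3-fold higher, with 37.9 CPM at E14.5 and 12.7 CPM at E12.5. In mesenchyme Ntn1 stood at 4.37 CPM in the mutant and 5.03 CPM in the control library. In the libraries labelled mutant, Ntn1 stood at 15.9 CPM at E14.5 and 9.92 CPM at E12.5, and Ntn4 at 9.84 CPM at E14.5 and 8.61 CPM at E12.5. Sema4a (3.22-fold), Sema7a (2.5-fold) and Unc5a (2.05-fold) were the other 3 higher in control epithelium. The steepest fall of the members above 10 CPM at E12.5 was that of Epha4, 5.92-fold lower (interval 5 to 7.06), at 10.3 CPM at E14.5 and 61.3 CPM at E12.5. Sema5a (5.66-fold), Robo1 (5.57-fold), Efna3 (5.22-fold) and Unc5c (5.02-fold) followed, and Nrp2 was 3.66-fold lower, at 13.1 CPM at E14.5 and 47.9 CPM at E12.5. By family, 4 of 6 EphA receptors, 3 of 5 ephrin-A ligands and 2 of 3 ephrin-B ligands were lower.

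Over the 54 members measured in both stage comparisons, Plxna1, Robo1, Unc5b, Efna5 and Efnb2 were lower with stage in both, which is 50% of the 10 called in the libraries labelled mutant and 21.7% of the 23 called in the control libraries, close to the shares of 43.9% and 22.3% over all genes. Sema7a was higher in both, or 20.0% of 5 in each, where the shares over all genes were 42.5% and 37.2%. Ephb1 was called in opposite directions, with 6.82 CPM at E14.5 and 3.02 CPM at E12.5 in the libraries labelled mutant, against 0.685 CPM at E14.5 and 7.25 CPM at E12.5 in the control libraries. Because the control and mutant-labelled libraries of each stage also enter the genotype comparisons, these ratios are not separate evidence from those. Sema3d was 4.27-fold higher at E14.5 in the libraries labelled mutant, at 23.6 CPM, against 5.52 CPM at E12.5. Slit3 was 2.87-fold lower there, at 25.2 CPM at E14.5 and 72.3 CPM at E12.5.

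Beyond the members, 42 co-receptors, relatives and intracellular effectors of these pathways were listed. In mutant against control mesenchyme, 1 of 29 measured was lower and none was higher, where 3.5% and 1.96% of all genes were. It was Ntng1, a membrane-anchored netrin relative, at 2.25 CPM in mutant and 5.3 CPM in control mesenchyme. In E12.5 epithelium, Crmp1, a semaphorin effector of the collapsin response family, was higher and Ngef, an Eph effector, was lower of 33 measured, where 1.79% and 3.21% of all genes were higher and lower. In E14.5 epithelium, 5 of 32 were higher and 8 were lower in the library labelled mutant, where 9.64% and 6.40% of all genes were. Crmp1 (2.85-fold) and Dpysl5 (2.58-fold) were among the higher genes. Those lower were Tiam1 (3.03-fold), Srgap3 (2.95-fold), Mical2 (2.72-fold), Vav3 (2.4-fold), Met (2.31-fold), Ngef (2.25-fold), Farp2 (2.07-fold) and Rgma (2.03-fold). Tiam1, a Rac activator, stood at 8.12 CPM in the library labelled mutant and 24.6 CPM in the control, and Srgap3, a Slit and Robo effector, at 5.24 CPM in the library labelled mutant and 15.5 CPM in the control. Dpysl3, of the same collapsin response family, stood at 146 CPM in the library labelled mutant and 43.3 CPM in the control, 3.38-fold higher. Flrt3, a membrane partner of Unc5 receptors, stood at 80.1 CPM in the library labelled mutant and 27.7 CPM in the control, 2.89-fold higher. Gpc1, a heparan sulfate proteoglycan that can bind Slits, stood at 261 CPM in the library labelled mutant and 113 CPM in the control, 2.31-fold higher. Met, a receptor that can pair with plexin-Bs, stood at 0.201 CPM in control mesenchyme and 50.6 CPM in control E12.5 epithelium, 252-fold lower (interval 85.9 to 1220). Gpc1 was 2.54-fold higher in control mesenchyme, at 462 CPM, against 182 CPM in control E12.5 epithelium. Between these fractions, 1 of 33 was higher and 8 were lower in the mutant pair, and 3 of 33 were higher and 7 were lower in the control pair. The shares of all genes were 5.42% higher and 12.9% lower in the mutant pair and 7.0% higher and 13.6% lower in the control pair. With stage, 1 of 33 was higher and 5 were lower in the libraries labelled mutant, and 1 of 32 was higher and 8 were lower in the control libraries. The shares of all genes with stage were 6.27% higher and 5.89% lower in the libraries labelled mutant and 6.53% higher and 11.2% lower in the control libraries.

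By position, several members of 1 family lie close together. Efna1, Efna3 and Efna4, all ephrin-A ligands, follow each other on chromosome 3, with gaps of 32.8 and 10.4 kb. In mutant-labelled against control E14.5 epithelium, only the middle gene, Efna3, was called, as Efna4 stood at 38.1 CPM in the library labelled mutant and 22.7 CPM in the control and Efna1 at 38 CPM in the library labelled mutant and 35.8 CPM in the control. Robo3 and Robo4 lie 0.554 kb apart on chromosome 9. Robo3 had a count in the mutant mesenchyme library alone, at 0.0643 CPM, while Robo4 ranged from 0.469 to 13.1 CPM. Sema3b and Sema3f lie 72.3 kb apart on chromosome 9, and both were lower in mesenchyme than in epithelium in the control pair.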

How the data were processed

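RNA was sequenced from sorted dorsal bud cells in 6 libraries. Per library, the authors deposited a table of unscaled whole-number counts by gene symbol, called deduplicated in the table names. The submitters' processing notes name mm10, Cufflinks 2.2.1 and Cuffdiff 2.2.1, and no aligner, counter or strand setting is stated in the sources used. The 5 summary lines closing each table were left out of totals. Reads on no gene were 4.69% to 8.84%, those ambiguous 1.53% to 1.72% and those with several alignments 13.7% to 20.1%.

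CPM used TMM factors (0.941 to 1.05) from edgeR 4.0.16 in R 4.3.3, with Python 3.11.15, scipy 1.17.1, matplotlib 3.10.9, pandas 2.3.3 and numpy 2.4.6 for the rest. Ratios carry exact 95% conditional binomial (Clopper-Pearson) intervals and floors of 3 counts, which cover counting error only, as the labels name no molecular identifiers and reads may not be separate molecules. Calls were made over all genes. The calculation was tested on simulated counts. Positions and exon lengths came from GENCODE M21 (all 67 members matched) and promoters from RefSeq. The genes named were members called in the control fraction or a genotype comparison at 10 CPM or more in any library, up to 30 per comparison, and up to 6 called co-receptors and effectors per comparison by the interval bound nearer to 1. Stage genes, members under that level and further co-receptors and effectors at E14.5 were named after their values were seen. Part of the mutant genotype and its check are not reported here. The members and lists were chosen with earlier results of these data known. Alternatives were DESeq2 1.42.0 size factors, plain CPM, thinning, filters at 1 CPM or none, 1.5-fold, a common genotype effect over the 3 mutant-control pairs (edgeR quasi-likelihood, all genes at 5 CPM or more in any library, tested on simulated data), and ratios relative to marker lists.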

Additional observations from a re-analysis of the deposited data

Results flagged for a closer look

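Ephb1 moved in opposite directions between genotypes at the 2 epithelial stages. Its log2 ratio was 3.32 in mutant-labelled against control E14.5 epithelium and -1.26 in mutant-labelled against control E12.5 epithelium, and the E12.5 ratio minus the E14.5 ratio was -4.58. The same 4 libraries give the same -4.58 as the stage change in control epithelium, -3.40, minus that in the libraries labelled mutant, 1.17, so these are 1 observation. All 4 levels lay under 10 CPM.

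Nrp2 lay on opposite sides of the fraction comparison. Its log2 ratio of mesenchyme over epithelium at E12.5 was 1.38 in the mutant pair and -1.07 in the control pair, and the control ratio minus the mutant ratio was -2.45. The same libraries gave its genotype log2 ratios of 2.17 in mesenchyme and -0.28 in E12.5 epithelium, so these are 1 observation. With 1 library per group, neither the Ephb1 nor the Nrp2 difference was tested.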

How the results depend on the processing

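Each of the 14 counts of members called stayed within 1.5 times under DESeq2 size factors, plain CPM and thinning. With a 1 CPM filter, 6 members were higher in mutant mesenchyme, 8 were lower in mutant-labelled E12.5 epithelium and 5 were lower in mutant-labelled E14.5 epithelium. With no filter these were 6, 8 and 5, and 4 were higher in mutant-labelled E12.5 epithelium. At 1.5-fold, 5 were higher in mutant mesenchyme, 5 higher and 8 lower in mutant-labelled E12.5 epithelium, 26 higher and 7 lower in mutant-labelled E14.5 epithelium, 21 higher in control mesenchyme than epithelium, 14 higher and 18 lower in the mutant pair, and 38 and 21 lower with stage in control and mutant-labelled epithelium. A lower filter or threshold loosens the calls of all genes too. The shares over all genes at these settings are not given here, so these counts are no result about the members. Relative to general epithelial genes, which moves the median of all genes by 0.96 in E14.5 genotype and -0.89 in control stage ratios, calls were 34 higher and 0 lower, and 1 higher and 43 lower. Relative to general mesenchymal genes, an alternative chosen after seeing the data that moves the E14.5 median by -1.3, 2 were higher and 23 lower at E14.5. Under it, log2 ratios changed sign for Efna2 (-0.29), Efnb1 (-0.18), Efnb3 (-0.05), Robo1 (-0.12), Sema3a (-0.10), Slit2 (-0.26) and Unc5a (-0.26). The cause was not tested. A common genotype effect with each mutant-control pair as a block, chosen after seeing the data, has 2 residual degrees of freedom and counts any difference in effect between tissues or stages as error. Whether fractions of 1 stage came from the same embryos is not in the labels, so the pairs may not be independent. The fit also includes the E14.5 pair, in which Pbx2 went against the label. By edgeR's quasi-likelihood test with Benjamini-Hochberg adjustment, it called 0 of 60 members higher or lower (smallest adjusted p = 0.723) and 1 of 12785 genes, and at an unadjusted p under 0.05 it gave 1 member higher and 3 lower, or 6.67%, where all genes gave 6.87%.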
